A study of Mus musculus with 4 samples.

Results

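Immediate-early transcription factors were examined in tibialis anterior (TA) muscle, which lifts the foot, from young and old mice. The set held 10 genes chosen by name, namely Fos, Fosb, Jun, Egr1, Egr2, Egr3, Nr4a1, Nr4a3, Maff and Myc, out of 20340 gene labels with a value in every sample. Each gene was found in 1 row of the expression tables. The rule takes genes by name, but it was set with earlier results of these data known. The muscles came from wild-type C57BL/6 mice aged 20 months (Old 1 and Old 2) or 3 months (Young 1 and Young 2), with 2 samples per age and no treatment. Expression was measured by mRNA sequencing and is given as FPKM, fragments counted relative to transcript length and to all mapped fragments, so that levels can be compared between genes of different length. The study describes independent sequencing experiments and groups of independent mice, and the design text of the series speaks of triplicates, but which mouse or mice gave each of the samples analysed here is not given in the sources used here. Mice were taken without regard to sex, and the sex behind each sample and the time of day of dissection are not given there.

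The samples did not share one scale. Between 10 and 30 FPKM, the median log2 ratio was 0.98 for Old 1 over Old 2 and 0.97 for Young 2 over Young 1, and the robust SD of that ratio across genes was 0.059 and 0.064. Between the ages, the same SD was 0.416 for Old 1 over Young 2 and 0.394 for Old 2 over Young 1. In this range the samples of an age therefore differed by little more than a factor, and whether they are separate libraries or repeat measures of 1 was not tested. Any p-value below covers only the spread between these samples. The factor was not the same at all levels. It grew at low expression, with a median log2 ratio of 2.45 for Old 1 over Old 2 from 0.1 to 1 FPKM, and single genes departed from it, such as the fast-fiber gene Tnnc2 with 35474 FPKM in Old 1 and 3469 FPKM in Old 2. Old 1 was therefore set against Young 2, and Old 2 against Young 1, samples of like scale (the crossed pairs, a pairing taken from an earlier look at these data). For the test, each sample was divided by its median ratio to the mean of all samples (scaled FPKM). The number of reads per sample is unknown, because whole reads could not be recovered from the FPKM values. In bulk tissue, fewer cells of a type and less RNA per cell cannot be told apart.

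Immediate-early genes are transcribed within minutes of a stimulus without the need for new protein, and their products then switch on later genes. Serum response factor at CArG boxes and CREB at cAMP response elements are well known activators of their promoters, downstream of MAP kinases and calcium. In skeletal muscle they respond to contraction, stretch, injury and hormones. Fos and Fosb pair with Jun to form the AP-1 factor, Maff is a small Maf protein that lacks an activation domain, the Egr proteins are zinc finger factors, Nr4a1 and Nr4a3 are orphan nuclear receptors linked to glucose and lipid metabolism in muscle, and Myc drives growth and ribosome synthesis.

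The promoters of 7 of the 10 members were found in the RefSeq table of promoter windows (GRCm38.p6, the build of the deposited loci), which hold 250 bases before the start of a gene and 50 bases from it on. Egr1, Egr3 and Myc had no entry. The windows of 4 members are shown, those of Fos, Nr4a3, Nr4a1 and the second of 3 listed for Maff, because these were the genes with windows whose ratios differed most between the ages. The Nr4a1 and Nr4a3 windows belong to starts inside their deposited loci, and the Fos and Maff windows to starts before theirs. Capitals mark the motifs searched on both strands, and positions are counted from 1 at the start of the gene, with negative positions before it.
Fos, chr12:85473640-85473939, plus strand: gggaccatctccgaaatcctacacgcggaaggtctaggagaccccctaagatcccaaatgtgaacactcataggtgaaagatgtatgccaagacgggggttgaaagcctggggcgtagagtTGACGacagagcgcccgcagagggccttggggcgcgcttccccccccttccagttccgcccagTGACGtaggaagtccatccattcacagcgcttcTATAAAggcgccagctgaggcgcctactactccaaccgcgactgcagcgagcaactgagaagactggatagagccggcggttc
Nr4a3, chr4:48045055-48045354, plus strand: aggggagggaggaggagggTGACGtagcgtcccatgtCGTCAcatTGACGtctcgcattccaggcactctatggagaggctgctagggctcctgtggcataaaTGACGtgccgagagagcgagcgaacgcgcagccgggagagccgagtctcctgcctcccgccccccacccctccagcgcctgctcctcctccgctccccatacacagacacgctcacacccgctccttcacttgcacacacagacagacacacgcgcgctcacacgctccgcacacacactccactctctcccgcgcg
Nr4a1, chr15:101266596-101266895, plus strand: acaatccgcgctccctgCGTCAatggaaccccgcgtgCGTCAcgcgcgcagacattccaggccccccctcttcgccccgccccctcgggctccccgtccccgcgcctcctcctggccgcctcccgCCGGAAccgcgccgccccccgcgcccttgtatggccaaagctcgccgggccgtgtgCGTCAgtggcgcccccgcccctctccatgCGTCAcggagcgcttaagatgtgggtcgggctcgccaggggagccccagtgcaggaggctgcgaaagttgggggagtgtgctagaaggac
Maff, chr15:79347270-79347569, plus strand: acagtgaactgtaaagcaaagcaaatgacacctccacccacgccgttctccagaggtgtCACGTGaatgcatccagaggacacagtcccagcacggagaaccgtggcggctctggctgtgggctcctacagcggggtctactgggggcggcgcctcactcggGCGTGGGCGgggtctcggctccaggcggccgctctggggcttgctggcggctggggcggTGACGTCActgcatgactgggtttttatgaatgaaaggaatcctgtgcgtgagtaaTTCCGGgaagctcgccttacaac
The motif most often met was TGACG, the core of the cAMP response element. The Fos window held 2 copies, the closer from -66 to -62, and a TATAAA from -33 to -28. Nr4a3 and Nr4a1 held 4 copies each. At least 1 copy was present in 20.9% of 32544 windows, at least 2 in 5.04% and at least 4 in 0.234%. Maff held the full element TGACGTCA from -29 to -22, present in 1.8% of windows, in which TGACG is counted on each strand. It also held GCGTGGGCG, a site of the Egr proteins, from -88 to -80, present in 0.618% of windows. The Maff window shown had the most matches of its 3. The first Maff window held none of the motifs searched, and the third held only 1 TGACG. A CArG box was found only for Egr2 among the 7 members, in 4 of its 5 windows (which overlap in part), against 1.64% of all windows. The other searches were AP-1 sites TGANTCA (7.79% of windows), TATAAA (13.6%), CCGGAA bound by Ets factors (15.0%), AAAGGTCA bound by Nr4a1 (1.52%) and the E-box CACGTG (7.17%). These are matches of letters in short windows and not sites shown to be bound, and elements further upstream lie outside them.

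Old and young muscles differed in 3 of the 10 genes, in opposite directions. Fos and Egr1 were higher and Nr4a3 was lower in Old, each by at least 4-fold in both crossed pairs. Of the 10 members, 7 reached 1 FPKM in at least 2 samples and were tested, and Fosb, Egr2 and Egr3 did not. In a fit of all 10266 genes with limma on log2(scaled FPKM + 1), 2 members rose and 1 fell at a Benjamini-Hochberg adjusted p under 0.05, while 0.234% of tested genes rose and 0.214% fell. Among 9293 tested genes above 0 in all samples, 0.258% exceeded 4-fold upward and 0.409% exceeded 4-fold downward in both crossed pairs. Without scaling, none of the 7 passed (limma, 2 at an unadjusted p under 0.05), against 0.175% of genes that rose and 0.127% that fell. With the crossed pairs as a block, all 7 passed, 4 higher and 3 lower, but so did 32.2% of genes upward and 32.5% downward. The median log2 difference over the 10 members was 0.10, against 0.00 over all 20340 genes. An exact permutation test of 2 samples against 2 cannot give a two-sided p below 0.333, a value that every gene whose ages do not overlap after scaling reaches, here Fos, Egr1, Egr3, Nr4a1, Nr4a3, Maff and Myc, so that it does not set apart the 3 genes called.

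**Figure D1:**
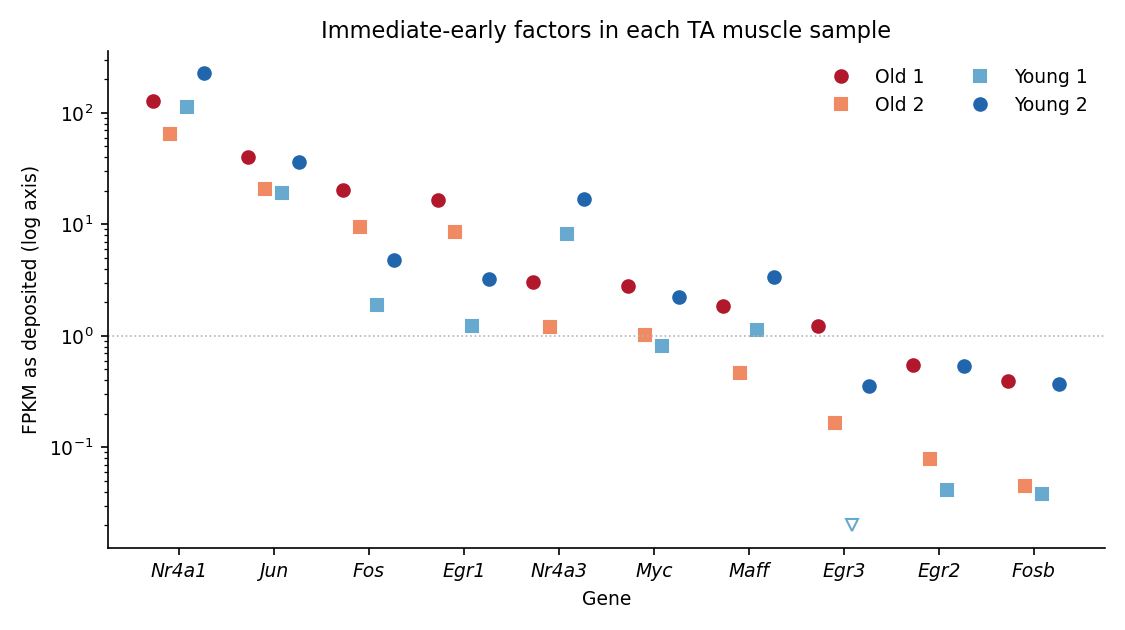
FPKM as deposited of the 10 members in each sample, on a log axis. Circles mark Old 1 and Young 2, squares mark Old 2 and Young 1, the open triangle marks Egr3 in Young 1, which is listed at 0, and the dotted line marks 1 FPKM. Both old samples lie above both young samples for Fos and Egr1, and below them for Nr4a3.

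Fos, the AP-1 subunit most closely tied to recent stimulation, lies on chromosome 12 from 85473901 to 85477270 (mm10 locus, plus strand, 4 exons). Its level was 20.2 FPKM in Old 1, 9.54 FPKM in Old 2, 1.90 FPKM in Young 1 and 4.74 FPKM in Young 2. Without any scaling, Old 1 and Old 2 both exceeded Young 1 and Young 2. The level of Fos in Old 1 was 4.26 times that in Young 2, and in Old 2 it was 5.01 times that in Young 1, a ratio above those of 99.7% and 99.4% of the genes compared. The difference of log2(scaled FPKM + 1) was 1.92 with a standard error of 0.114 (adjusted p = 0.0446 from limma). Its level exceeded that of 72.2% and 73.3% of tested genes in Old 1 and Old 2, but only of 37.7% and 34.4% in Young 1 and Young 2.

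Jun, the partner of Fos in AP-1, lies on chromosome 4 from 95049036 to 95052222 (minus strand, 1 exon). Its level was 40.3 FPKM in Old 1, 20.8 FPKM in Old 2, 18.9 FPKM in Young 1 and 36.4 FPKM in Young 2, so that the ages overlapped. The crossed pairs gave 1.11-fold and 1.10-fold, and the log2 difference was 0.16 with a standard error of 0.215 (adjusted p = 0.804 from limma). A change of Jun of the size of that of Fos was therefore not seen. Jun overlaps the antisense gene Junos, and reads of the pair can be told apart only if strand was used in counting, which the sources used here do not say. Fosb, a close relative of Fos on chromosome 7 from 19302696 to 19310045, was low throughout, with 0.393 FPKM in Old 1, 0.0451 FPKM in Old 2, 0.0381 FPKM in Young 1 and 0.366 FPKM in Young 2. Its crossed pairs gave 1.08-fold and 1.19-fold, but its values differed by 8.71-fold between the old samples and by 9.61-fold between the young samples.

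Maff, a small Maf protein that pairs with other bZIP factors, lies on chromosome 15 from 79347678 to 79359076. Its level was 1.87 FPKM in Old 1, 0.465 FPKM in Old 2, 1.13 FPKM in Young 1 and 3.37 FPKM in Young 2. Before scaling the ages overlapped, and in the crossed pairs Young 2 was 1.80-fold above Old 1 and Young 1 was 2.43-fold above Old 2. The log2 difference of -0.59 had a standard error of 0.195 and did not pass the threshold (adjusted p = 0.257 from limma).

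Egr1, a zinc finger factor induced by growth factors and mechanical load, showed the largest ratios in favor of Old in the set among members above 0 in all samples. Its locus is on chromosome 18 from 34861207 to 34864956. Its level was 16.5 FPKM in Old 1, 8.48 FPKM in Old 2, 1.23 FPKM in Young 1 and 3.25 FPKM in Young 2, again with both old samples above both young samples. Egr1 in Old 1 stood at 5.09 times its level in Young 2, and in Old 2 at 6.87 times its level in Young 1, above 99.8% and 99.6% of the genes compared. The log2 difference was 2.12 with a standard error of 0.141 (adjusted p = 0.0480 from limma).

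The other Egr genes were far lower and were not tested. Egr2, known for its role in the myelination of nerves by Schwann cells, lies on chromosome 10 from 67537869 to 67542188 and had 0.549 FPKM in Old 1, 0.0792 FPKM in Old 2, 0.0412 FPKM in Young 1 and 0.531 FPKM in Young 2. Its crossed pairs gave 1.03-fold and 1.92-fold, and its old samples differed by 6.94-fold. Egr3, needed for the formation of muscle spindles, lies on chromosome 14 from 70077445 to 70080157 and had 1.22 FPKM in Old 1, 0.165 FPKM in Old 2 and 0.354 FPKM in Young 2, and it was listed at 0 in Young 1. Old 1 was 3.46-fold above Young 2, and no fold is given for the other pair. The ages overlapped for both genes in the values as deposited.

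Of the NR4A receptors, Nr4a3 fell and Nr4a1 did not pass the test. Nr4a1 was the most abundant member in every sample and lies on chromosome 15 from 101259767 to 101274794 (8 exons). It had 127 FPKM in Old 1, 64.2 FPKM in Old 2, 113 FPKM in Young 1 and 226 FPKM in Young 2. As deposited, these values overlapped between the ages, since the factor between the samples of an age was 1.98 in Old and 1.99 in Young, and they did not overlap after scaling, with 82.0 and 101 in Old against 174 and 144 in Young. Young 2 was 1.77-fold above Old 1 and Young 1 was 1.76-fold above Old 2. The log2 difference of -0.79 (standard error 0.215) did not pass the threshold (adjusted p = 0.202 from limma). With samples scaled on the genes at 1 FPKM or more in all samples, an alternative added after seeing the data, Nr4a1 did pass it (adjusted p = 0.0289 from limma), and 5.61% of genes were then higher and 7.94% lower.

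Nr4a3, a receptor of the same family that is induced by exercise, lies on chromosome 4 from 48045198 to 48084441 (8 exons). It had 3.04 FPKM in Old 1, 1.20 FPKM in Old 2, 8.18 FPKM in Young 1 and 17.0 FPKM in Young 2, with both old samples below both young samples without scaling. Young 2 was 5.60-fold above Old 1 and Young 1 was 6.82-fold above Old 2, and only 0.183% and 0.484% of the genes compared had a lower ratio of Old to Young. The log2 difference was -2.12 with a standard error of 0.107 (adjusted p = 0.0346 from limma). The remaining receptor of the family, Nr4a2, was not a member and was not tested, with 1.02 FPKM in Old 1, 0.255 FPKM in Old 2, 0.178 FPKM in Young 1 and 0.827 FPKM in Young 2. Its ratios were 1.23 for Old 1 over Young 2 and 1.43 for Old 2 over Young 1.

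Myc lies on chromosome 15 from 61985341 to 61990361. It had 2.78 FPKM in Old 1, 1.01 FPKM in Old 2, 0.808 FPKM in Young 1 and 2.24 FPKM in Young 2, and these values overlapped between the ages. The crossed pairs gave 1.24-fold and 1.26-fold higher levels in Old, and the log2 difference of 0.21 (standard error 0.135) did not pass the threshold (adjusted p = 0.503 from limma).

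**Figure D2:**
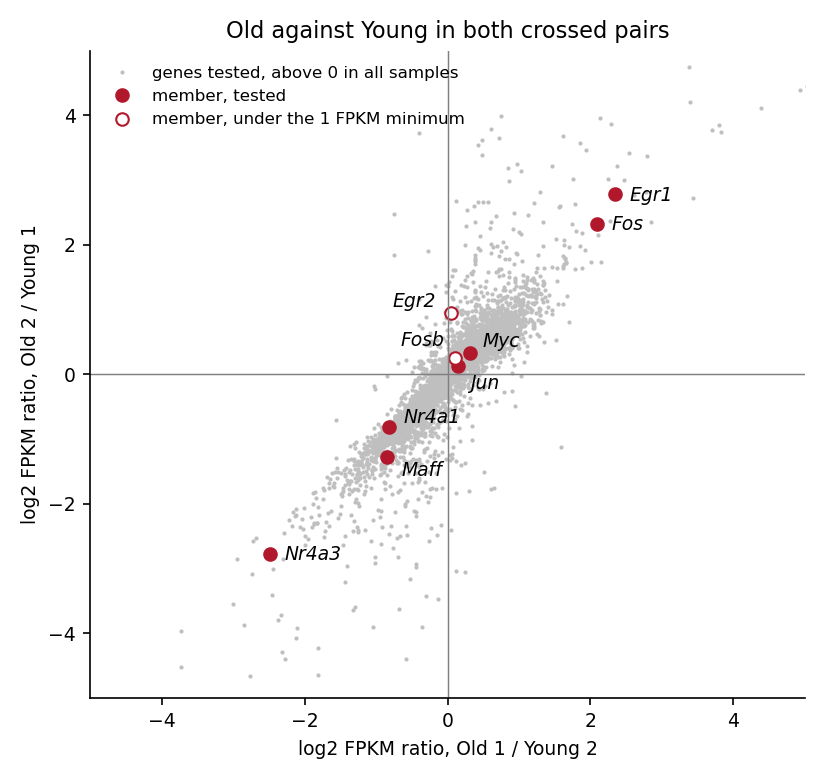
Log2 FPKM ratio of Old 1 to Young 2 (horizontal axis) against that of Old 2 to Young 1 (vertical axis). Gray points are 9293 genes tested and above 0 in all samples (15 lie outside the axes), and red points are members, open where they were not tested, with Egr3 left out because it is listed at 0 in Young 1. Egr1 and Fos lie at the upper right, Nr4a3 at the lower left, and Jun, Myc and Fosb near the origin.

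Among the members tested, 3 had both old samples above both young samples after scaling (Fos, Egr1 and Myc) and 3 had both below (Nr4a1, Nr4a3 and Maff), but 23.7% and 23.5% of all tested genes did so as well. In the values as deposited, only Fos and Egr1 lay above and only Nr4a3 below, against 1.61% and 1.93% of tested genes. At 2-fold in both crossed pairs the members were again Fos, Egr1 and Nr4a3, against 1.51% of the genes compared that were higher and 2.60% that were lower.

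The ratio of 2 members within a sample does not depend on a factor common to the genes of that sample. It still depends on the part of the factor that changed with level. How often such ratios do not overlap for other pairs of genes was not computed. Per length, Fos stood at 0.501 of the level of Jun in Old 1 and 0.459 in Old 2, against 0.101 in Young 1 and 0.130 in Young 2. The ratio of Egr1 to Jun was 0.411 and 0.408 in Old 1 and Old 2, against 0.0652 and 0.0893 in Young 1 and Young 2. Nr4a1 was 3.16 and 3.09 times as high as Jun in Old 1 and Old 2, and 5.98 and 6.20 times as high in Young 1 and Young 2. The ages did not overlap in these 3 ratios. The samples of each age lay close to each other for Nr4a1 to Jun, while the young samples lay further apart for Fos and Egr1 to Jun. The ratio of Nr4a3 to Nr4a1 was 0.0239 in Old 1 and 0.0187 in Old 2, against 0.0723 in Young 1 and 0.0754 in Young 2, and the ages did not overlap in this ratio. Egr1 stood at 0.819 and 0.889 of Fos in Old 1 and Old 2 and at 0.648 and 0.686 in Young 1 and Young 2, a ratio 1.28-fold higher in Old by the means, with no overlap. The ratio of Myc to Jun overlapped between the ages, at 0.0690, 0.0488, 0.0427 and 0.0614 in Old 1, Old 2, Young 1 and Young 2.

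**Figure D3:**
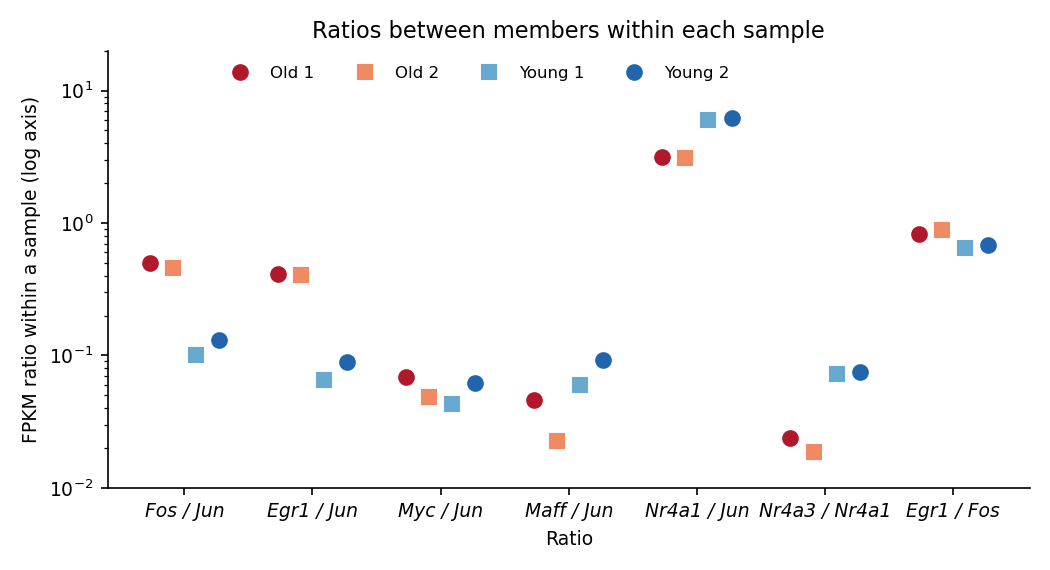
Ratio of the FPKM of one member to that of another within each sample, on a log axis, with 1 point per sample. The ratios of Fos and Egr1 to Jun lie higher in both old samples, those of Nr4a1 to Jun and of Nr4a3 to Nr4a1 lie lower, and that of Myc to Jun overlaps.

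The order of the levels changed accordingly. In all samples, Nr4a1 had rank 1 and Jun rank 2, counted from the highest FPKM. In Old 1 and Old 2, Fos had rank 3, Egr1 rank 4 and Nr4a3 rank 5. In Young 1 and Young 2, Nr4a3 had rank 3 and Fos rank 4, and Egr1 had rank 5 in Young 1 and rank 6 in Young 2. Neighbors in this order were often close: Fos and Egr1 in Old 1 and Old 2 differed by less than the samples of that age did for either gene. Myc stood above Maff in Old 1 and Old 2 and below it in Young 1 and Young 2. Fosb, Egr2 and Egr3 were the lowest in every sample, and their order differed between the ages.

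Genes known to work with the members were grouped in 5 lists (128 genes with a value, 110 tested). Listed genes without a value among the loci analysed could not be examined. In the AP-1 list these were Junb, Jund and Maf, and among other immediate-early genes Ier2, Klf2, Dusp4 and Csrnp1. Among the upstream regulators they were Elk1, Map2k1, Map2k7, Araf, Hras, Rps6ka3 and Crtc1. Of the 13 tested AP-1 family genes and partners reported here, 0 passed (limma, adjusted p under 0.05, with 1 at an unadjusted p under 0.05), and their median log2 difference was -0.15. That gene was the small Maf gene Mafk, with ratios of 0.586 for Old 1 over Young 2 and 0.573 for Old 2 over Young 1 (adjusted p = 0.187 from limma). With the scaling added after seeing the data, Mafk did pass (adjusted p = 0.0291 from limma). None of 5 Egr and NR4A relatives and cofactors passed (limma, 0 at an unadjusted p under 0.05), nor did any of 9 genes of the Myc network (limma, 2 at an unadjusted p under 0.05). The medians of these lists were -0.05 and 0.05. With the added scaling, 2 genes of the Myc network fell, Max (adjusted p = 0.0316 from limma) and Mlxipl (adjusted p = 0.0335 from limma).

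Other immediate-early genes went in both directions, but more of those tested were lower in Old. In both crossed pairs 15 were higher and 29 lower, against 4 and 3 of the tested members. Of all tested genes, 4344 were higher and 4640 lower. Of 44 tested, 0 rose and 1 fell (limma, adjusted p under 0.05), 27 had an unadjusted p under 0.05, against 1856 of 10266 genes in all, and the median log2 difference was -0.16. The gene that fell was Cebpd, a bZIP factor of inflammation and fat cell formation, with 5.61 FPKM in Old 1, 2.22 FPKM in Old 2, 11.3 FPKM in Young 1 and 23.5 FPKM in Young 2 (log2 difference -1.91, adjusted p = 0.0453 from limma). This call was lost without scaling (adjusted p = 1.0), with the same summed FPKM (0.227), with no filter (0.107) and with no trend (0.0787), as those of Fos, Egr1 and Nr4a3 were. In both crossed pairs, 1.36% of all 10266 tested genes exceeded 2-fold in favor of Old and 2.36% in favor of Young. Of the 44 genes of this list, 4 (9.09%) and 8 (18.2%) did so, and these genes are named after their values were seen. The higher ones were Cyr61, a matrix-associated protein (3.14-fold and 3.44-fold for Old 1 over Young 2 and Old 2 over Young 1), the kinase gene Pim1 (3.08-fold and 4.22-fold), the Notch target Hes1 (2.19-fold and 2.32-fold) and the kinase gene Plk2 (2.27-fold and 2.50-fold). The lower ones were Cebpd, Gadd45g, Sik1, Nfil3, Zfp36, Cebpb, Per1 and Rhob. Gadd45g, a stress-response gene, had 32.8 FPKM in Old 1, 16.2 FPKM in Old 2, 67.6 FPKM in Young 1 and 132 FPKM in Young 2, and its log2 difference of -1.96 did not pass the threshold (adjusted p = 0.0783 from limma). Per1, a gene of the circadian clock that hormones also induce, had 16.8 FPKM in Old 1, 8.72 FPKM in Old 2, 21.5 FPKM in Young 1 and 42.8 FPKM in Young 2. With the scaling added after seeing the data, 9 of the 44 rose and 17 fell, against 5.61% and 7.94% of all genes.

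Of 39 tested upstream regulators, none passed (limma, 1 at an unadjusted p under 0.05), and their median log2 difference was -0.08. With the added scaling, 2 rose and 2 fell. The gene of this list with the largest difference was Mef2c, a muscle transcription factor, with 213 FPKM in Old 1, 96.7 FPKM in Old 2 and 45.9 FPKM in Young 2, but it was listed at 0 in Young 1 and did not pass the threshold (adjusted p = 0.298 from limma, against 0.00148 without scaling). The companion genes whose log2 ratios in the crossed pairs lay nearest to the medians of the members (0.13 and 0.25 over the members with a ratio) were Zfp36l2, Mlx and Btg1, at distances of 0.0776, 0.0839 and 0.0902 on the log2 scale. Since the members themselves had log2 ratios from -2.77 for Nr4a3 to 2.78 for Egr1 in Old 2 over Young 1, these describe genes that differed little between the ages.

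**Figure D4:**
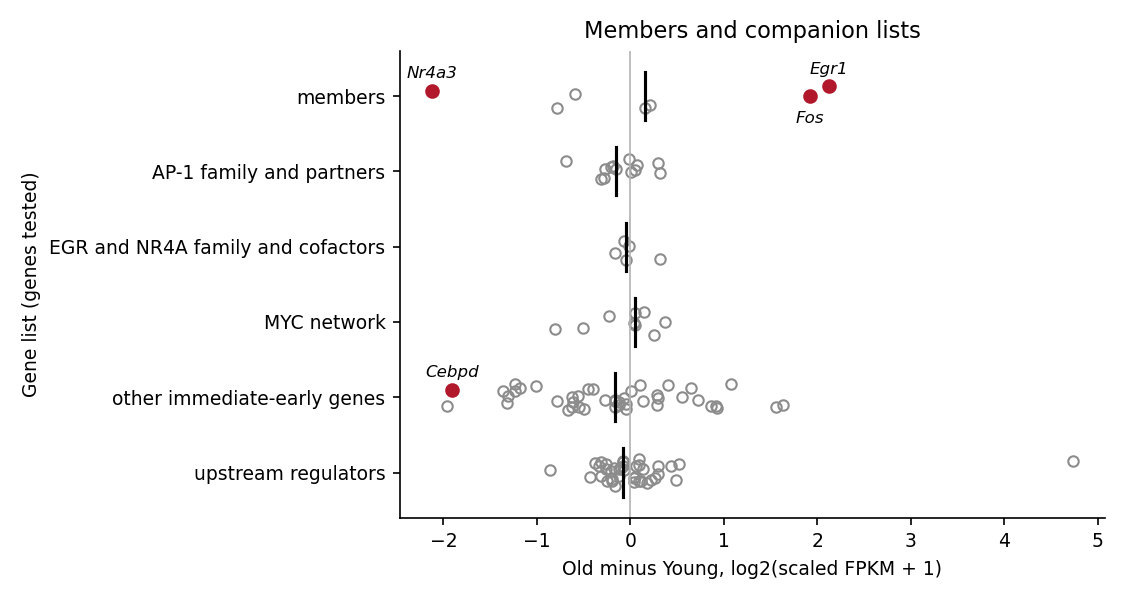
Difference of log2(scaled FPKM + 1), Old minus Young, for the tested genes of the member set and of the 5 companion lists. Each point is a gene, filled and named where its adjusted p from limma was under 0.05, and black bars mark the median of a list. The members spread from -2.12 to 2.12, and most companion genes lie between -1 and 1.

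Markers of the cell types of muscle tissue also differed between the ages, and their part in the differences above was not tested. The 6 slow-fiber genes summed to 826 and 729 scaled FPKM in Old 1 and Old 2, against 55.2 and 56.9 in Young 1 and Young 2, and all 6 rose (limma, adjusted p under 0.05). With the same summed FPKM only Myh7 stayed past the threshold (adjusted p = 0.0497 from limma), with no filter or no trend Myh7 and Atp2a2 were lost, and without scaling Atp2a2 was lost. Of the fast-fiber genes, Ckm and Myh4, which are abundant in this muscle, were listed at 0 in all samples, so an entry of 0 in these tables does not show that a gene is silent. The 7 fast-fiber genes with a value summed to 68354 and 24620 scaled FPKM in Old 1 and Old 2 and to 25297 and 51050 in Young 1 and Young 2, so that samples of an age still lay apart after scaling. The 8 macrophage and leukocyte genes summed to 17.5 and 15.0 scaled FPKM in Old against 24.0 and 26.0 in Young. The 4 neutrophil genes summed to 3.12 in Old 1 and were listed at 0 in Old 2, against 12.6 and 18.2 in Young 1 and Young 2. The 6 fibroblast genes summed to 115 and 146 in Old 1 and Old 2 against 203 and 167 in Young 1 and Young 2. The 8 endothelial genes summed to 94.0 and 116 in Old 1 and Old 2 against 143 and 118, the 5 satellite cell genes to 6.02 and 4.90 against 5.46 and 6.29, the 4 Schwann cell genes to 28.3 and 33.1 against 49.4 and 41.7, and 3 of 5 smooth muscle and pericyte genes to 103 and 93.5 against 107 and 140. Of 4 red blood cell genes only the alpha-globin locus had a value, with 607 FPKM in Old 1, 277 FPKM in Old 2, 39.5 FPKM in Young 1 and 88.6 FPKM in Young 2. Slow-fiber genes in sum and alpha-globin were thus higher in Old, as Fos and Egr1 were. The sums of leukocyte, neutrophil, fibroblast and Schwann cell genes were lower, the direction in which Nr4a3 differed. Endothelial sums were lower by a narrow margin (116 in Old 2 against 118 in Young 2). So were the smooth muscle and pericyte sums (103 in Old 1 against 107 in Young 1). Within that list, Rgs5 overlapped between the ages, with 79.0 and 63.8 scaled FPKM in Old 1 and Old 2 against 68.0 and 109 in Young 1 and Young 2. The sums of satellite cell genes overlapped between the ages. No leukocyte, neutrophil, fibroblast, Schwann cell or endothelial gene passed the threshold (limma, with 2, 2, 3, 2 and 4 at an unadjusted p under 0.05). With the scaling added after seeing the data, 1 leukocyte, 0 neutrophil, 3 fibroblast and 2 Schwann cell genes fell (limma, adjusted p under 0.05). Of the endothelial genes, 1 then rose and 3 fell. That scaling called 5.61% of all tested genes higher and 7.94% lower. Single fibroblast, leukocyte and endothelial genes went against the sums of their lists. The ratios of Old 1 to Young 2 and of Old 2 to Young 1 were 1.24 and 1.21 for the fibroblast gene Dcn. They were 1.16 and 1.18 for Pdgfra, and 1.47 and 1.25 for the leukocyte gene Ptprc. The Schwann cell gene Mbp was lower in Old, as the sum of its list was, but by less (0.916 and 0.918). The ratios of the collagen gene Col1a1 were 0.230 and 0.235.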

How the data were processed

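mRNA-seq was performed on TA muscle from C57BL/6 mice, in 2 samples aged 20 months and 2 aged 3 months, grouped by their labels. The authors trimmed the reads, took out PCR duplicates and aligned the rest to mm10 with TopHat2 2.0.10. Cufflinks then gave FPKM values for each RefSeq locus, which the authors deposited sample by sample. In the labels the kit is a TruSeq RNA kit, and in the methods a stranded mRNA kit. Removal of duplicates can lower the values of highly expressed genes. Read depth is unknown.

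The values of each sample ended with 1 incomplete line, which was dropped, and 542 loci that lacked a value in some sample were left out. Loci after these lines were not analysed here. Rows of a symbol were summed. Samples were scaled by the median of ratios over genes above 0 in all samples, and log2(scaled FPKM + 1) was fitted with limma 3.58.1 in R 4.3.3 (empirical Bayes with a trend, two-sided, Benjamini-Hochberg over the 10266 genes that reached 1 FPKM in 2 or more samples). Fold changes on this scale understate changes of low genes. The fits were also run on simulated data with independent noise in each sample. That setting does not cover samples that are repeat measures of 1 library. The authors' Cuffdiff test needs reads and was not repeated. Locus starts are given as 1-based, since the deposited starts lay 1 below RefSeq for 7769 of 17004 genes and equal for 481. Tables were computed in Python 3.11.15 (pandas 2.3.3) and figures drawn with matplotlib 3.10.9.

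The members and lists were chosen with earlier results of these data known. The rule set for naming genes took the members, up to 4 genes per companion list past the threshold, and the 3 companions nearest the members. Other genes were named outside this rule, with their values known. These were Nr4a2, Mafk, Max, Mlxipl, Mef2c, the other companions past 2-fold in both crossed pairs, and single marker genes. One gene of a list is not reported here and is left out of the counts of that list. As a check of pairing, deviations of same-numbered samples from their age means were correlated over the tested genes (r = -0.906).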

Additional observations from a re-analysis of the deposited data

How the results depend on the processing

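The calls of Fos, Egr1 and Nr4a3 lay near the threshold (adjusted p 0.0446, 0.048 and 0.0346 from limma), and each was lost under the same 4 of 16 alternatives. The alternatives that kept the calls are not of equal weight. Some took the spread of a gene wholly from all genes at its level. These were at least 1 FPKM in all 4 samples (14460 degrees of freedom, against 3.789 in the main fit), the replicate block (10270), and the fits without Old 1 or Young 2. As deposited, without scaling, 0 members rose and 0 fell (limma, 2 at an unadjusted p under 0.05), and all genes gave 18 higher and 13 lower. The same summed FPKM gave 0 and 0 members (4 unadjusted) with 7 and 5 genes, no filter 0 and 0 (5 unadjusted) with 6 and 4, and no trend 0 and 0 (5 unadjusted) with 7 and 4. The direction of each of Fos, Egr1, Nr4a1, Nr4a3, Maff and Myc held under every alternative that could test them, with Fos from 1.85 to 2.20, Egr1 from 2.02 to 2.53 and Nr4a3 from -2.54 to -2.05. Jun reversed to -0.01 without Old replicate 2 and ran up to 0.32 with another sample left out.

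Quantile normalization gave 89 genes higher and 136 lower, a pseudocount of 0.1 gave 37 and 40, and leaving out genes at 0 gave 120 and 193, all with 2 members higher and 1 lower. The highest row per symbol gave 34 and 28. At least 1 FPKM in all 4 samples gave 708 and 635 genes, and the scaling added after seeing the data gave 576 and 815, each with 2 members higher and 2 lower, Nr4a1 being the added one. Counting ratios past 2-fold in both pairs, with no test, gave 140 and 242 genes. With the replicate block, a pairing by the numbers of the labels, limma gave 98 and 119 genes and the same 3 members, while a block of the crossed pairs gave 3302 and 3336 genes and all 7 tested members (4 higher, 3 lower). The same-numbered deviations were opposed (correlation -0.906). This cannot be told apart from the factor that sets Old 1 and Young 2 apart from Old 2 and Young 1. Whether samples of equal number were handled together was not tested. Without 1 sample, the lone sample of an age being assumed to vary like the others, 51 to 441 genes were higher and 71 to 554 lower, with 2 members higher and 1 to 2 lower, Maff being the added one without Old 1 or without Young 2. The median of the members ran from 0.03 to 0.21 over all alternatives. The cause of these moves was not tested. Fosb, Egr2 and Egr3 were too low to test, and the depth behind them is unknown.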
